A study of Mus musculus with 12 samples.

Results

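The 214 expressed long intergenic noncoding RNAs (lincRNAs) of mouse peritoneal macrophages were described across 2 ways of eliciting the cells and with or without the matricellular protein SPARC. They are the gene rows that the deposited matrix types as lincRNA and that were selected on their measured level: counts per 1e6 counts of the column total (CPM) had to average at least 1 in at least 1 of 4 groups. The level rule chose 214 of 3707 lincRNA rows (5.77%), out of 47729 gene rows in all, whereas 11817 of 22048 protein coding rows (53.6%) reached it. Cells came from C57BL/6 mice. Thioglycollate (TG) mice received 3% thioglycollate, an irritant that recruits inflammatory macrophages, in 1 injection 4 days before collection. IL-4 complex (IL4c) mice received 5 ug of IL-4 bound to 25 ug of antibody, which prolongs the action of the cytokine, given as 2 injections with collection 2 days after the last. Adherent cells were then kept for 24 h with SPARC at 20 ug/ml or without it. The groups were TG cells with SPARC, untreated TG cells, IL4c cells with SPARC and untreated IL4c cells, with 3 polyA-selected RNA libraries each. No control protein beside SPARC is named in the labels. Nor is it said which mice a replicate came from, so every p-value rests on the scatter of these libraries, which may be technical.

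LincRNAs are transcribed by RNA polymerase II, capped and mostly spliced and polyadenylated like messenger RNAs, but hold no long conserved reading frame. Many stay in the nucleus, where they scaffold nuclear bodies or act on chromatin near the site of their own transcription, and others serve mainly as precursors of microRNAs or small nucleolar RNAs. In macrophages the best studied ones are induced by pathogen sensing through NF-kB and interferon signalling, among them Ptgs2os2 (lincRNA-Cox2), AW112010 and Mir155hg.

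The RefSeq promoters of 6 lincRNAs with a called rise (5 of them) or fall (2810414N06Rik) with SPARC in both injections are shown first. Each runs from 250 bases before to 50 bases after the RefSeq start, 5′ to 3′ on the strand of the gene (GRCm38.p6). Both strands were searched for 3 motifs, where matches of different motifs may overlap. They are the interferon-stimulated response element (TTTC, any 2 bases, TTTC), the STAT-binding GAS element (TTC, any 3 bases, GAA) and the kappa B element (GGG, any 2 bases, TTTCC). Capitals mark the matches.
Ptgs2os2 (chr1:150164899-150165198, minus strand): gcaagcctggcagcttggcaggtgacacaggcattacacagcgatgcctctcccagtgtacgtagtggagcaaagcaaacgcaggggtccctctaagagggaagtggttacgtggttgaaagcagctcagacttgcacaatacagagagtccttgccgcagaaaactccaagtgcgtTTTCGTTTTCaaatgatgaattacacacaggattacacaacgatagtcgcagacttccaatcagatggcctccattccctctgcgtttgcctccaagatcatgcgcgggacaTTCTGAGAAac
AW112010 (chr19:11050517-11050816, minus strand): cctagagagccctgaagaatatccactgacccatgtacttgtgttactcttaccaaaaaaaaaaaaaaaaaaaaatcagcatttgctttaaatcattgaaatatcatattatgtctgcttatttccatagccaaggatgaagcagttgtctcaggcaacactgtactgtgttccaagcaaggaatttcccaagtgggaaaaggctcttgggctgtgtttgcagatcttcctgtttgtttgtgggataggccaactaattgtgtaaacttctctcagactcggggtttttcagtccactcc
Mir155hg (chr16:84712773-84713072, plus strand): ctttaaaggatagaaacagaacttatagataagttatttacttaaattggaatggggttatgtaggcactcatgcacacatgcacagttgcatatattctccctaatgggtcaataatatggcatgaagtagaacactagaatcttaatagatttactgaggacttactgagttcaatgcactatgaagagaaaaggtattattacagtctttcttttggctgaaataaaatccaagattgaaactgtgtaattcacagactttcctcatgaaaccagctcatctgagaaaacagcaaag
A930007I19Rik (chr19:29521938-29522237, minus strand): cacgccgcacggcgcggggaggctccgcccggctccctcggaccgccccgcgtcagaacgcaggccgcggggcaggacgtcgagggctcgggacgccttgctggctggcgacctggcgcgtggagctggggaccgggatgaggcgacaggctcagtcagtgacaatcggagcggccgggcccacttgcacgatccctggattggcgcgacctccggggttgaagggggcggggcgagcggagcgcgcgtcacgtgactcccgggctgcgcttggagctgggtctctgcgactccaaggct
Gm19705 (chr1:136683146-136683445, plus strand): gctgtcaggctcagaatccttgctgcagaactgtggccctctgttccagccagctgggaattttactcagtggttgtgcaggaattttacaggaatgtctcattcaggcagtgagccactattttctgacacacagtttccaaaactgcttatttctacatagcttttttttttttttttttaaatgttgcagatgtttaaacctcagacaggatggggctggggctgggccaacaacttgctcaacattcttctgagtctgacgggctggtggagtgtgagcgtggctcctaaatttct
2810414N06Rik (chr1:151754969-151755268, minus strand): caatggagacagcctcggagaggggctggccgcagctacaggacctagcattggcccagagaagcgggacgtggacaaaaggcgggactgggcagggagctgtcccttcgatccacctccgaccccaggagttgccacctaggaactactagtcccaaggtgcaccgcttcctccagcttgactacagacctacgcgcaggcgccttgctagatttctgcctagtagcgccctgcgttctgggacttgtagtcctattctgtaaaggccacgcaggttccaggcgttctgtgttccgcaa

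The Ptgs2os2 window held both an interferon element (TTTCGTTTTC, first base at −73) and a GAS element (TTCTGAGAA, first base at 39), and the other 5 windows held none of the letters searched. Of 32851 RefSeq promoters of the same 300 bases, 3.44% held the interferon element, 8.30% the GAS element and 1.63% the kappa B element. Among the 106 lincRNAs here with a RefSeq promoter, 5 held the interferon element (4.72%), 4 the GAS element (3.77%) and 2 the kappa B element (1.89%). The printed windows also differ in composition. That of A930007I19Rik held 40 CpG dinucleotides at 73.7% GC, that of 2810414N06Rik 16 at 59.7% and that of Ptgs2os2 12 at 50.7%. AW112010, Gm19705 and Mir155hg held 1, 2 and 0, against a median of 7 in all promoters of the table. The RefSeq start was the GENCODE start for Ptgs2os2 and 2810414N06Rik, but lay inside the GENCODE gene, 1172 to 12627 bp downstream of its start, for the other 4. For Gm19705, 2 promoters are listed, of which 1 is shown. Which start the transcripts used in these cells was not tested. A match is a description of letters, not a binding site.

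Host transcripts of microRNAs are also present, and the 3 whose symbols name them as hosts, Mir155hg, Mir142hg and Mir17hg, are used here. Others, such as A430106G13Rik with Mir181a-1 and Mir181b-1, hold microRNA genes on the same strand in M21. Mature products of the 3 are shown as the parts of these transcripts that act on other messages, with the seed, bases 2 to 8, in capitals (RefSeq, GRCm38.p6).
mmu-miR-155-5p (chr16:84714143-84714165, plus strand): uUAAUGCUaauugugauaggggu
mmu-miR-142a-5p (chr11:87756867-87756887, plus strand): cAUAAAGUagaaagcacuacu
mmu-miR-142a-3p (chr11:87756903-87756925, plus strand): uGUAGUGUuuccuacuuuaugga
mmu-miR-17-5p (chr14:115043684-115043706, plus strand): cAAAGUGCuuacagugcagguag
mmu-miR-20a-5p (chr14:115044183-115044205, plus strand): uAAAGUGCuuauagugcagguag

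The 2 products of Mir17hg shown, miR-17-5p and miR-20a-5p, share the seed AAAGUGC. Mir17hg also holds Mir18, Mir19a, Mir19b-1 and Mir92-1, whose products are not shown. The seeds of the Mir155hg and Mir142hg products shown differ from AAAGUGC and from each other. Mature microRNAs were not measured: the rows of Mir155, Mir142, Mir17 and Mir20a themselves were at 0 counts in all 12 libraries, so values below are of the host transcripts only.

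Library totals ran between 31501941 and 42288785 estimated counts, at which 3 counts correspond to 0.0707 to 0.0974 CPM. All 214 lincRNAs passed the filter on low counts and were tested among 15232 genes. From here on CPM is scaled by the TMM method, differences are log2 fold changes ± SE, and a gene was called where the p of the edgeR quasi-likelihood test, adjusted over all genes tested, was under 0.05. Levels chose the 214, so those that reached 1 CPM in only some groups, 95 of them, had in part to differ between groups. Examples described here are Ptgs2os2, Gm26902, Gm12606, Snhg18, 3300005D01Rik and 4930440I19Rik. The other 119 reached it in all 4. Macrophage markers summed to 27313 to 28840 CPM in TG cells with SPARC, 21200 to 33064 in untreated TG cells, 9487 to 15722 in IL4c cells with SPARC and 17305 to 25468 in untreated IL4c cells. Most of that sum was Lyz2, at 4444 to 9577 CPM in IL4c cells with SPARC, against 11679 to 20372 CPM in untreated ones. Mertk was also lower there without overlap, at 88.5 to 133 CPM, against 304 to 390 CPM. So was Cd68, at 1348 to 1440 CPM, against 1514 to 1641 CPM. Adgre1, at 2154 to 3362 CPM, against 1988 to 2563 CPM, overlapped between these groups. Csf1r overlapped as well, at 1234 to 1453 CPM, against 1269 to 1529 CPM. Both TG libraries numbered 1 stood apart: their 8 B cell markers summed to 580 CPM with SPARC and 994 CPM untreated, and those of the 4 other TG libraries to between 126 and 171 CPM. The neutrophil list summed to 27.9 to 53.2 CPM in TG cells with SPARC, against 6.83 to 11.6 CPM in untreated ones, and to 26.8 to 41.4 CPM in IL4c cells with SPARC, against 6.96 to 9.61 CPM in untreated ones. Nearly all of it was S100a8, while Ly6g and Mpo were at most 0.129 CPM everywhere. In such bulk samples fewer cells of a type and less RNA per cell cannot be told apart.

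The expressed lincRNAs were a low-abundance class with a few very abundant members. Per length and library size (FPKM, as deposited) their median over the 12 libraries was 1.52, against 10.8 for protein coding rows that reach the same 1 CPM, and 30 of the 214 averaged at least 10 CPM. They summed to 4069 to 7031 CPM per library before TMM scaling, which is 97.6% to 98.7% of all lincRNA counts, and 65.0% to 81.9% of that sum came from Gm42418, Malat1 and Neat1. Most have no descriptive name: 102 carry Gm symbols, 74 carry Rik symbols and 3 clone symbols. In GENCODE M21 (GRCm38), 209 of the identifiers were found, of which 173 are still typed lincRNA. Another 11 are typed bidirectional promoter transcripts, 11 antisense, 9 processed transcripts and 2 protein coding. RefSeq types 12 of the 214 as protein coding, among them Gm37494, Gm26637 and Gm38399. It types 3 as transcribed pseudogenes and 1 as a pseudogene, and 72 had no match there. Many are not intergenic in the strict sense, since 49 overlap the body of a protein coding gene and 68 more lie within 5 kb of one, 34 of these in divergent orientation. With the strandedness of counting not given in the sources used here, reads of such a lincRNA and of the gene that overlaps it cannot be told apart.

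**Figure D1:**
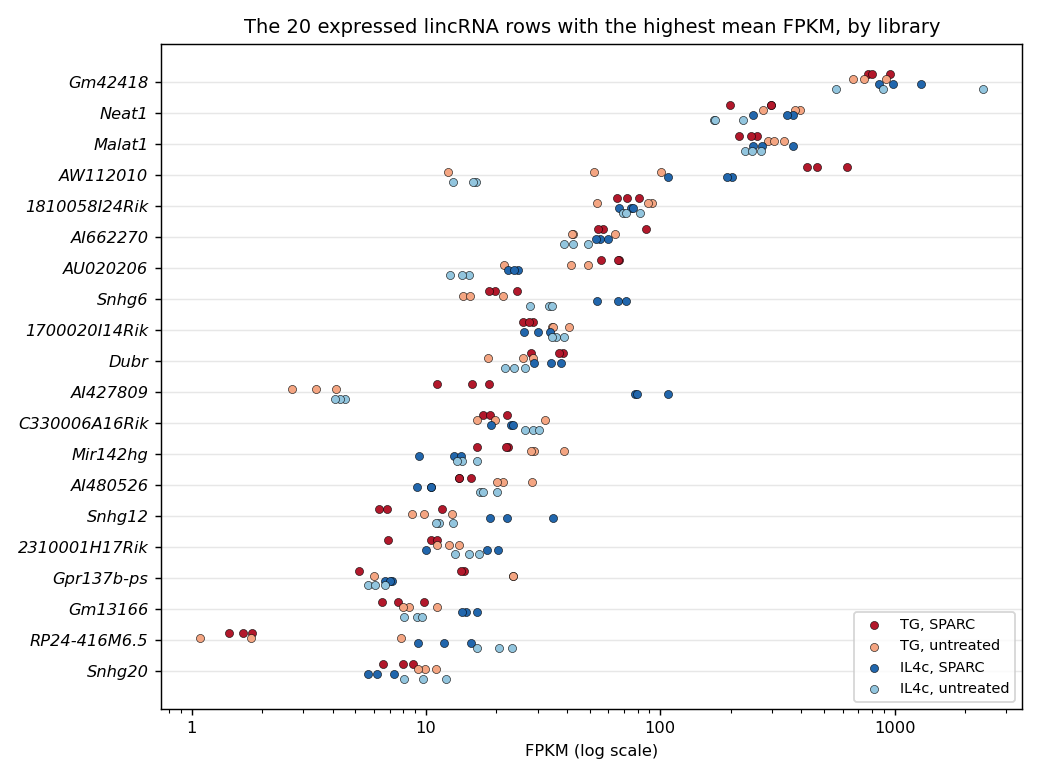
FPKM (log scale) of the 20 expressed lincRNA rows with the highest mean over 12 libraries, 1 point per library, coloured by group. Gm42418, Neat1 and Malat1 lie at or above 170 FPKM in every library, whereas AW112010 and AI427809 separate the SPARC libraries from the untreated ones.

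Gm42418 had the highest level, but what it counts is unsettled. It lies at chromosome 17, 39846958 to 39848788 on the plus strand, and RefSeq lists its symbol as a synonym of Rn18s-rs5, a pseudogene related to 18S ribosomal RNA. Its FPKM was 768, 798 and 958 in TG cells with SPARC, 743, 923 and 668 in untreated TG cells, 983, 1291 and 857 in IL4c cells with SPARC and 894, 564 and 2392 in untreated IL4c cells. The 12 values overlap between all groups, 1 untreated IL4c library stands above the rest, and no comparison called it. Next in level per length came Neat1 with a mean of 281 FPKM, Malat1 with 274, AW112010 with 186, 1810058I24Rik with 74.6 and AI662270 with 53.8. Neat1 and Malat1 did not differ beyond their spread over libraries, which was 170 to 395 and 217 to 370 FPKM. RefSeq types 1810058I24Rik as protein coding.

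Malat1 and Neat1 are abundant nuclear RNAs transcribed from adjoining loci on chromosome 19. Malat1 is found in nuclear speckles, and Neat1 builds paraspeckles, bodies that hold back edited RNAs and splicing proteins. Malat1 (5795690 to 5802672, minus strand) was at 1105, 1089 and 983 CPM in TG cells with SPARC, against 1132, 1340 and 1366 CPM in untreated TG cells. In IL4c cells with SPARC it was at 1255, 1629 and 1074 CPM, against 1062, 1249 and 1031 CPM in untreated ones. Differences were −0.27 ± 0.17 in TG cells (adjusted p = 0.344) and 0.24 ± 0.17 in IL4c cells (adjusted p = 0.319). Neat1 (5824708 to 5845478, minus strand) was at 1164, 1130 and 792 CPM in IL4c cells with SPARC, against 723, 558 and 557 CPM in untreated ones. These groups did not overlap, and Neat1 was higher with SPARC by 0.75 ± 0.24 (adjusted p = 0.0403). In TG cells it was at 613, 930 and 926 CPM with SPARC, against 786, 1216 and 1137 CPM untreated, a difference of −0.35 ± 0.24 (adjusted p = 0.399). Its IL4c call was lost in 9 of the 12 fits that leave out 1 library, those without any of the IL4c libraries but IL4c with SPARC replicate 3 and without any TG library numbered 2 or 3, with adjusted p up to 0.144.

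Jpx and Ftx, noncoding genes of the X inactivation centre, were low and showed no called difference. Jpx averaged 1.49 ± 0.177 CPM in TG cells with SPARC and 1.47 ± 0.538 in untreated TG cells, and 0.889 ± 0.144 in IL4c cells with SPARC and 1.24 ± 0.133 in untreated IL4c cells (SD, n = 3 each). Ftx averaged 6.03 ± 1.24 and 7.50 ± 3.10 CPM in TG cells with SPARC and untreated, and 3.44 ± 0.893 and 4.26 ± 0.330 CPM in IL4c cells with SPARC and untreated. Of the 16 symbols in the nuclear and chromatin list, 4 are among the 214, and Neat1 was the only one with a call in any comparison, 1 higher with SPARC in IL4c cells and 1 lower between injections.

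By the edgeR test without a block, the share of lincRNAs called with SPARC in either direction was close to that of all genes. The share called lower was above that of all genes with and without the block, by least in TG cells without it. In TG cells 13 were called higher and 12 lower with SPARC, which is 11.7% of 214 (6.07% higher and 5.61% lower), against 11.3% of all 15232 genes tested (6.73% higher and 4.52% lower). In IL4c cells 29 were higher and 37 lower, or 30.8% (13.6% higher and 17.3% lower), against 27.8% of all genes (15.1% higher and 12.7% lower). The median log2 fold change of the lincRNAs was −0.27 in TG cells and −0.19 in IL4c cells, beside −0.03 and −0.00 over all genes tested, and fold changes were below 0 for 144 and 132 of the 214. Fitted with the replicate number as a block, the counts were 20 higher and 48 lower in TG cells and 44 higher and 63 lower in IL4c cells. The TG calls are 31.8% of the lincRNAs, against 27.3% of all genes, and the IL4c calls 107 of the 214, against 45.2% of all genes. In that fit 22.4% of the lincRNAs were lower in TG cells, against 13.1% of all genes, and 9.35% were higher, against 14.3%. In IL4c cells 29.4% were lower, against 22.4% of all genes, and 20.6% higher, against 22.8%. On FPKM values (log2 of FPKM + 1) the TG calls split into 10 higher and 16 lower among the 158 lincRNAs that pass its filter, or 16.5%, against 12.6% of all genes. Single libraries decide part of the counts: the TG count of 25 was 16, 13 and 14 without TG with SPARC replicate 1, 2 or 3 and 11 without untreated TG replicate 3, which is 5.14% to 7.48% of the lincRNAs, against 4.68% to 7.86% of all genes in those fits. The IL4c count of 66 was 43 and 39 without untreated IL4c replicate 1 or 2 (18.2% in the second fit, against 15.9% of all genes).

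The 2 SPARC comparisons use different libraries. Among the 214, 11 were called higher in both and 11 lower in both, 2 higher and 1 lower in TG cells alone, and 18 higher and 26 lower in IL4c cells alone, while 145 were called in neither. That is 5.14% in each direction, against 5.48% of all genes tested for higher in both and 3.65% for lower in both. No lincRNA and no gene tested was called in opposite directions. Being called in one injection and not in the other does not show a difference between injections, which was tested as such further on. Those higher in both were AW112010, Ptgs2os2, Mir155hg, AI504432, AI427809, A930007I19Rik, Gm19705, Bvht, AU020206, Gm26637 and Gm26797, the last 2 of which were named after their values were seen.

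**Figure D2:**
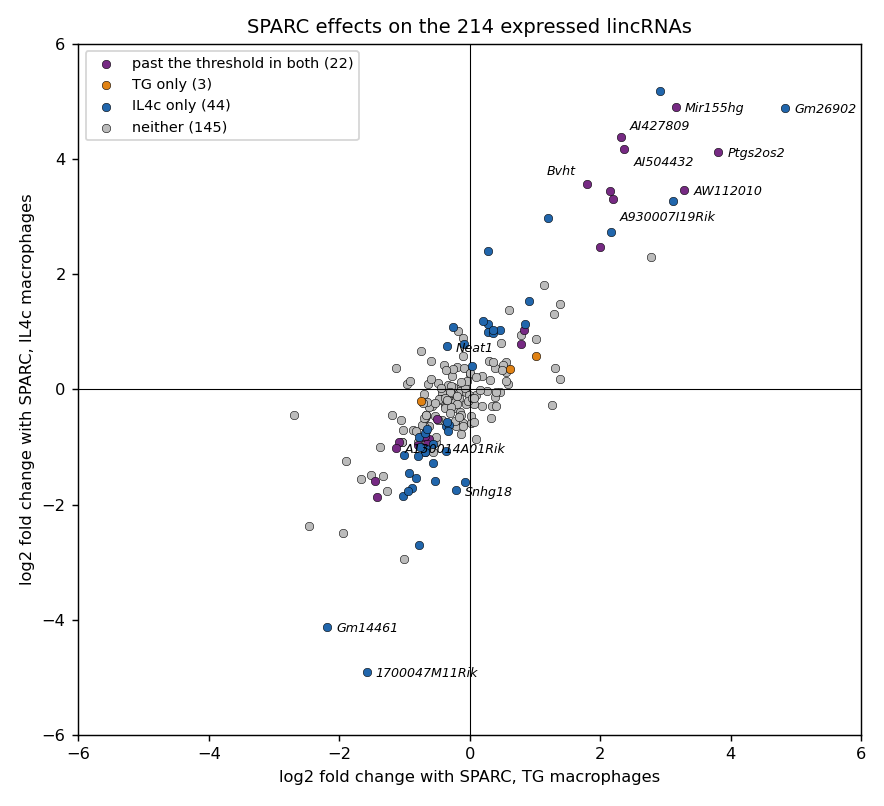
Log2 fold change with SPARC of each of the 214 expressed lincRNAs in TG macrophages (x axis) and IL4c macrophages (y axis), coloured by which comparison called it. The 22 called in both lie in the upper right or lower left, and several large rises were called in both, for example Ptgs2os2 at 3.81 and 4.13.

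Of the 26 symbols listed as noncoding regulators of innate immunity, 6 are among the 214, and 3 of them were higher with SPARC in both injections. The list was chosen with earlier results of these data known, so this count is a description. Of all genes tested, 5.48% were higher in both. AW112010, which is induced in mouse macrophages by bacterial products and holds a translated short reading frame, had the highest CPM of the 3. It lies at chromosome 19, 11047612 to 11055808 on the minus strand. It was at 287, 439 and 325 CPM in TG cells with SPARC, against 63.6, 35.6 and 8.35 CPM in untreated TG cells. In IL4c cells it was at 75.9, 147 and 137 CPM with SPARC, against 9.31, 11.9 and 11.3 CPM untreated. The groups did not overlap in either injection, and untreated TG cells were the most scattered. AW112010 rose by 3.29 ± 0.60 in TG cells (adjusted p = 0.00909) and by 3.47 ± 0.60 in IL4c cells (adjusted p = 0.00275). With the TG groups fitted alone its adjusted p was 0.0762.

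Ptgs2os2, which in mouse macrophages both represses and activates immune genes and lies downstream of the cyclooxygenase gene Ptgs2 (chromosome 1, 150159043 to 150164948, minus strand), was rare but had the largest called rise in TG cells. Its values were 0.640, 1.35 and 0.970 CPM in TG cells with SPARC, against 0.0707, 0.104 and 0.0263 CPM in untreated TG cells, where it was at or near the level of 3 counts. IL4c cells gave 2.90, 3.01 and 2.21 CPM with SPARC, against 0.260, 0.121 and 0.0799 CPM untreated. Every SPARC library lay above every untreated library. The rises were 3.81 ± 0.53 (adjusted p = 0.00308) and 4.13 ± 0.50 (adjusted p = 4.07e-04).

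Mir155hg, the precursor of miR-155, a microRNA that restrains negative regulators of inflammatory signalling, lies at chromosome 16, 84703167 to 84715245 on the plus strand. It was at 10.3, 2.64 and 3.50 CPM in TG cells with SPARC, against 1.37, 0.209 and 0.236 CPM in untreated TG cells. Replicate 1 was the highest TG library of both groups. In IL4c cells the values were 5.27, 6.54 and 8.33 CPM with SPARC, against 0.260, 0.272 and 0.133 CPM untreated. Mir155hg rose by 3.16 ± 0.76 in TG cells (adjusted p = 0.0270) and by 4.91 ± 0.85 in IL4c cells (adjusted p = 0.00265). Its TG call was lost with the TG groups fitted alone (adjusted p = 0.138) and without TG with SPARC replicate 1, untreated TG replicate 2 or untreated TG replicate 3 (adjusted p = 0.0619, 0.0661 and 0.0877).

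The other 3 of the 6 were not called with SPARC. Mirt1, named for its rise in the infarcted mouse heart, was at 3.78, 0.977 and 0.823 CPM in TG cells with SPARC, against 7.12, 3.57 and 3.34 CPM in untreated TG cells. In IL4c cells it was at 1.08, 0.666 and 0.309 CPM, against 2.99, 1.82 and 1.07 CPM. Within each replicate number the SPARC library was the lower one, while the groups overlapped, and differences of −1.33 ± 0.67 (adjusted p = 0.240) and −1.51 ± 0.69 (adjusted p = 0.134) became −1.54 (adjusted p = 0.00400) and −1.53 (adjusted p = 0.00333) with the replicate number as a block. Trp53cor1 (lincRNA-p21), which p53 induces, differed by 1.02 ± 0.35 in TG cells (adjusted p = 0.0893) and 0.87 ± 0.34 in IL4c cells (adjusted p = 0.0795; 0.0452 with the block). Pvt1, the lincRNA beside the oncogene Myc, differed by −0.34 ± 0.36 (adjusted p = 0.609) and −0.15 ± 0.35 (adjusted p = 0.785).

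**Figure D3:**
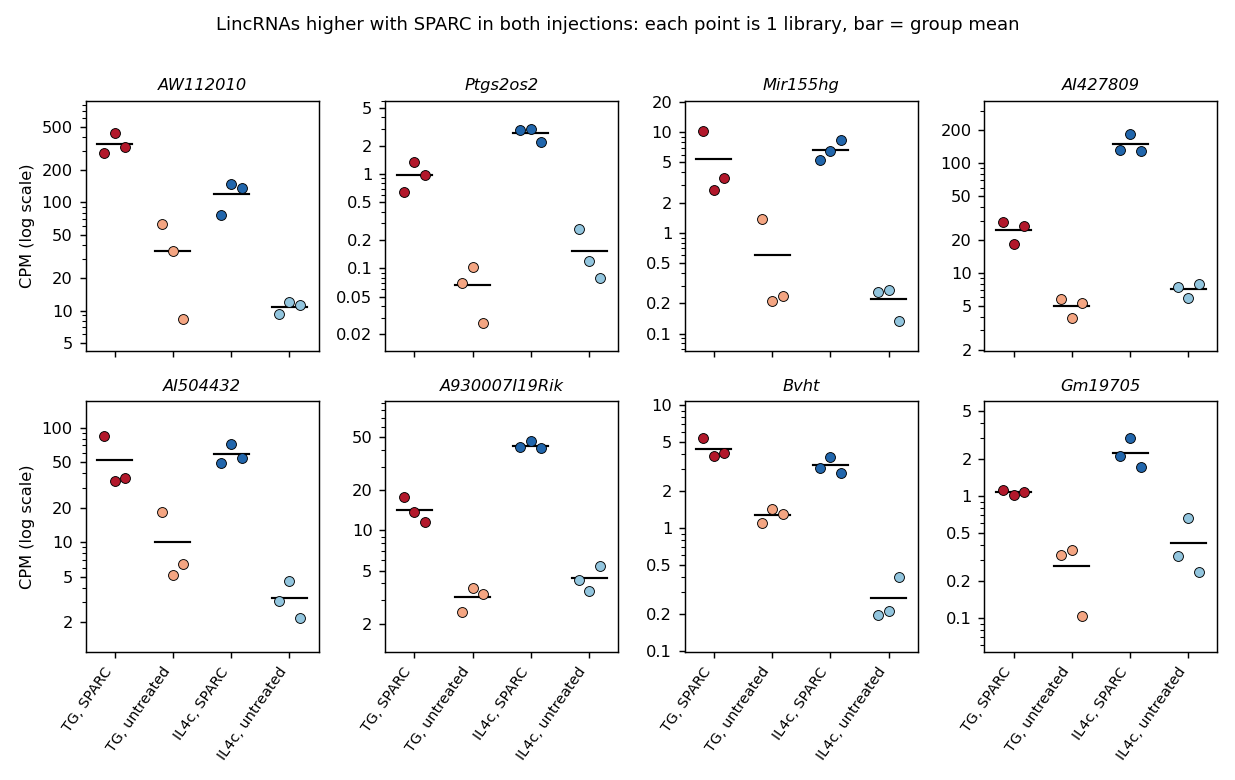
CPM (log scale) of 8 lincRNAs called higher with SPARC in both injections, 1 point per library and a bar at the group mean. In all 8 the 3 SPARC libraries lie above the 3 untreated libraries of the same injection, and AI427809 and A930007I19Rik reach higher levels in IL4c cells with SPARC than in TG cells with SPARC.

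Other lincRNAs rose in both injections. AI427809 (chromosome 4, 53261356 to 53270232, minus strand), which RefSeq names Mexis, is known in mouse macrophages for raising expression of the cholesterol transporter gene Abca1. It was at 29.1, 18.5 and 26.7 CPM in TG cells with SPARC, against 5.80, 3.86 and 5.28 CPM in untreated TG cells, and at 131, 186 and 130 CPM in IL4c cells with SPARC, against 7.53, 5.93 and 7.96 CPM in untreated ones. Untreated levels were close in the 2 injections and the levels with SPARC were not. Its rises were 2.31 ± 0.23 (adjusted p = 6.33e-04) and 4.38 ± 0.25 (adjusted p = 1.07e-05). AI504432 (chromosome 3, 107039504 to 107054347, plus strand) was at 84.8, 34.2 and 36.5 CPM in TG cells with SPARC, against 18.5, 5.16 and 6.46 CPM in untreated TG cells. In IL4c cells it was at 49.6, 72.5 and 54.8 CPM, against 3.08, 4.57 and 2.18 CPM. As for Mir155hg, TG replicate 1 was high in both groups. The rises were 2.37 ± 0.53 (adjusted p = 0.0211) and 4.17 ± 0.58 (adjusted p = 8.98e-04), and the TG call was lost without untreated TG replicate 2 or 3 (adjusted p = 0.0511 and 0.0754) and with the TG groups alone (adjusted p = 0.108).

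A930007I19Rik (chromosome 19, 29464750 to 29523159, minus strand) runs antisense to Pdcd1lg2 and Ric1, and M21 types it as antisense. It was at 17.7, 13.7 and 11.6 CPM in TG cells with SPARC, against 2.43, 3.70 and 3.31 CPM in untreated TG cells, and at 42.1, 46.6 and 41.4 CPM in IL4c cells with SPARC, against 4.28, 3.51 and 5.40 CPM in untreated ones. The spread within groups was small beside the rises of 2.19 ± 0.21 (adjusted p = 5.30e-04) and 3.30 ± 0.22 (adjusted p = 2.44e-05). Bvht (Braveheart), known from cardiac lineage commitment in the mouse embryo, was at 5.36, 3.85 and 4.06 CPM in TG cells with SPARC, against 1.11, 1.43 and 1.29 CPM in untreated TG cells. In IL4c cells it was at 3.09, 3.82 and 2.78 CPM, against 0.195, 0.212 and 0.399 CPM. It rose by 1.79 ± 0.28 (adjusted p = 0.00446) and 3.56 ± 0.31 (adjusted p = 9.07e-05).

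Gm19705, which reached 1.03 to 1.13 CPM in TG cells with SPARC, against 0.105 to 0.365 CPM in untreated TG cells, rose by 2.00 ± 0.48 (adjusted p = 0.0266), and by 2.47 ± 0.48 (adjusted p = 0.00434) in IL4c cells. Leaving out any TG library with SPARC or untreated TG replicate 3 ended its TG call (adjusted p = 0.0510 to 0.0695), as did fitting the TG groups alone (adjusted p = 0.0817). AU020206, far more abundant, was at 160, 164 and 144 CPM in TG cells with SPARC, against 112, 104 and 54.9 CPM in untreated TG cells, and at 62.2, 60.3 and 62.6 CPM in IL4c cells with SPARC, against 33.1, 39.6 and 34.8 CPM in untreated ones. Its rises were smaller, 0.79 ± 0.21 (adjusted p = 0.0427) and 0.78 ± 0.22 (adjusted p = 0.0229), and the TG call was lost under total-count scaling (adjusted p = 0.0675), with the TG groups alone (adjusted p = 0.176) and in 8 of 12 fits without 1 library, those without any TG library with SPARC and without any IL4c library but IL4c with SPARC replicate 3 (adjusted p up to 0.0951). Its IL4c call was lost without any untreated IL4c library or IL4c with SPARC replicate 2 (adjusted p up to 0.0780). AI662270, with 71.1 to 113 CPM in TG cells with SPARC against 53.8 to 70.8 CPM in untreated ones, differed by 0.51 ± 0.19 (adjusted p = 0.108; 0.00460 with the block), and by 0.39 ± 0.19 in IL4c cells (adjusted p = 0.144; 0.00563 with the block).

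Gm26902 showed the largest fitted rise with SPARC in TG cells without passing there. M21 types it as a bidirectional promoter transcript, and it overlaps Ch25h on the opposite strand (chromosome 19, 34474808 to 34481546, plus strand). It was at 6.57, 6.96 and 6.82 CPM in IL4c cells with SPARC, against 0.0649, 0.0303 and 0.559 CPM in untreated ones, a rise of 4.89 ± 1.21 (adjusted p = 0.0145) that was lost without untreated IL4c replicate 1 or 2 (adjusted p = 0.0574 and 0.0594). In TG cells it was at 1.55, 0.0574 and 0.118 CPM with SPARC, against 0, 0.0261 and 0.0263 CPM untreated, so 5 of 6 libraries held at most a few counts. With the block the TG comparison had an adjusted p of 0.0496, against 0.0804 without it. 4930440I19Rik, the row just inside the level rule, was at 0.844, 0.987 and 1.26 CPM in IL4c cells with SPARC, against 0.0974, 0.151 and 0.133 CPM in untreated ones. It passed that rule only through IL4c cells with SPARC, so it had in part to differ. In unscaled CPM its highest group mean was 1.005, followed inside the rule by Gm10101 at 1.009 and Gm16001 at 1.017, and the rows just outside were 2700046G09Rik at 0.982, Gm4319 at 0.976 and Gm26536 at 0.963.

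For scale, the protein coding interferon targets Irf7, Isg15, Ifit1 and Rsad2 had log2 fold changes with SPARC of 3.21 to 4.75 in TG cells and 4.90 to 6.62 in IL4c cells. Irf7, which amplifies interferon transcription, averaged 824 ± 55.3 CPM in TG cells with SPARC and 30.7 ± 15.9 in untreated ones, and 1666 ± 275 CPM in IL4c cells with SPARC and 55.6 ± 7.67 in untreated ones (SD, n = 3 each).

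LincRNAs that fell with SPARC in both injections moved by less than the most raised ones. The 11 fell by 0.51 to 1.46 in TG cells and by 0.51 to 1.87 in IL4c cells. They were A530017D24Rik, A130014A01Rik, Gm26514, Gm37494, 2810414N06Rik and, outside the rule for named genes and chosen after their values were seen, 1700020I14Rik, AI480526, Gm38399, Gm16793, Gm26912 and 3300005D01Rik. A530017D24Rik (chromosome 11, 61864568 to 61868058, minus strand) was the steadiest, at 6.61, 6.75 and 6.94 CPM in TG cells with SPARC, against 11.2, 11.2 and 11.1 CPM in untreated TG cells, and at 6.41, 6.83 and 6.43 CPM in IL4c cells with SPARC, against 10.8, 12.9 and 11.3 CPM in untreated ones. It fell by 0.72 ± 0.09 (adjusted p = 0.00168) and by 0.83 ± 0.09 (adjusted p = 2.42e-04). A130014A01Rik (chromosome 8, 120101582 to 120103904, plus strand) was at 3.23, 3.16 and 3.26 CPM in TG cells with SPARC, against 8.82, 6.21 and 6.17 CPM in untreated TG cells. In IL4c cells it was at 4.35, 4.42 and 3.16 CPM, against 7.72, 9.20 and 7.19 CPM. The falls were 1.13 ± 0.19 (adjusted p = 0.00609) and 1.01 ± 0.19 (adjusted p = 0.00355), and groups did not overlap.

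Gm37494 was at 37.0, 36.9 and 36.6 CPM in TG cells with SPARC, against 78.6, 47.1 and 51.3 CPM in untreated TG cells, and at 32.5, 35.7 and 30.2 CPM in IL4c cells with SPARC, against 68.0, 79.0 and 62.8 CPM in untreated ones. It fell by 0.68 ± 0.17 (adjusted p = 0.0329) and 1.09 ± 0.17 (adjusted p = 0.00168). Without both TG libraries numbered 1 the TG value was −0.40 (adjusted p = 0.0556), and the TG call was also lost without any TG library with SPARC, untreated TG replicate 3 or untreated IL4c replicate 1 (adjusted p = 0.0504 to 0.0815). Gm26514 and 2810414N06Rik, at 0.823 to 3.13 CPM throughout, fell by 0.69 ± 0.17 and 0.80 ± 0.22 in TG cells (adjusted p = 0.0313 and 0.0445) and by 0.81 ± 0.18 and 0.97 ± 0.22 in IL4c cells (adjusted p = 0.00766 and 0.00947). Their TG calls were fragile: that of 2810414N06Rik was lost in each of the 12 fits without 1 library (adjusted p up to 0.123). That of Gm26514 was lost in 8, those without any TG library but untreated TG replicate 1 and without untreated IL4c replicate 1 or 2 or IL4c with SPARC replicate 1 (adjusted p up to 0.121).

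Larger falls were called in IL4c cells. Some markers of other cells were also lower there with SPARC. The 4 dendritic markers summed to 2.64 to 3.18 CPM, against 30.2 and 32.0 CPM in untreated replicates 1 and 2 and less in replicate 3. That was mostly Cd209a, at 0.185 to 0.334 CPM with SPARC and 5.01 to 26.6 CPM untreated. Zbtb46 was at 2.19 to 2.71 CPM, against 4.12 to 5.17 CPM. Flt3 and Xcr1, at most 0.264 CPM in IL4c libraries, overlapped between these groups. The 8 B cell markers summed to 48.2 to 90.2 CPM, against 90.1 to 207 CPM. The T and NK cell list overlapped, and the neutrophil list was higher with SPARC. The part of other cells in these falls was not tested. 1700047M11Rik (chromosome 1, 182287990 to 182303325, plus strand) was at 0.580, 1.01 and 0.257 CPM in IL4c cells with SPARC, against 16.1, 27.1 and 12.8 CPM in untreated ones, a fall of 4.91 ± 0.62 (adjusted p = 5.30e-04). In TG cells it was at 0.975, 3.42 and 2.85 CPM with SPARC, against 5.97 and 5.67 CPM in untreated replicates 2 and 3 and more in replicate 1, without overlap (−1.58 ± 0.53, adjusted p = 0.0888; 0.0480 with the block). Gm14461, which RefSeq types as protein coding (chromosome 2, 78237547 to 78302230, plus strand), was at 0.475, 0.617 and 2.68 CPM in IL4c cells with SPARC, against 18.4, 22.5 and 24.8 CPM in untreated ones. It fell by 4.12 ± 1.22 (adjusted p = 0.0304). In TG cells its libraries were far apart, at 0.0305, 4.28 and 4.91 CPM with SPARC, against 2.62, 17.4 and 22.1 CPM untreated (−2.19 ± 1.11, adjusted p = 0.247; 0.0196 with the block), and the libraries numbered 1 were the low ones. The IL4c call of Gm14461 was lost without any IL4c library but IL4c with SPARC replicate 3 (adjusted p = 0.0585 to 0.105).

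Gm28873, Gm13479, Gm5547 and Gm28875 completed the largest falls in IL4c cells, at 0.143 to 1.34 CPM with SPARC against 1.37 to 4.09 CPM untreated. Gm28873 fell by 2.70 ± 0.84 (adjusted p = 0.0368) and Gm13479 by 1.85 ± 0.54 (adjusted p = 0.0295). Both calls rest on single libraries: that of Gm13479 was lost without any IL4c library but untreated IL4c replicate 3, and that of Gm28873 without any IL4c library but untreated IL4c replicate 1 or without TG with SPARC replicate 2 or 3 (adjusted p up to 0.0965 and 0.110). Gm5547 fell by 1.77 ± 0.40 (adjusted p = 0.00940) and Gm28875 by 1.71 ± 0.39 (adjusted p = 0.00937). In TG cells the values of these 4 were −0.78 ± 0.78, −1.02 ± 0.54, −0.95 ± 0.39 and −0.88 ± 0.38, none of them called, while the block gave adjusted p = 0.00776 for Gm5547 and 0.0144 for Gm28875.

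**Figure D4:**
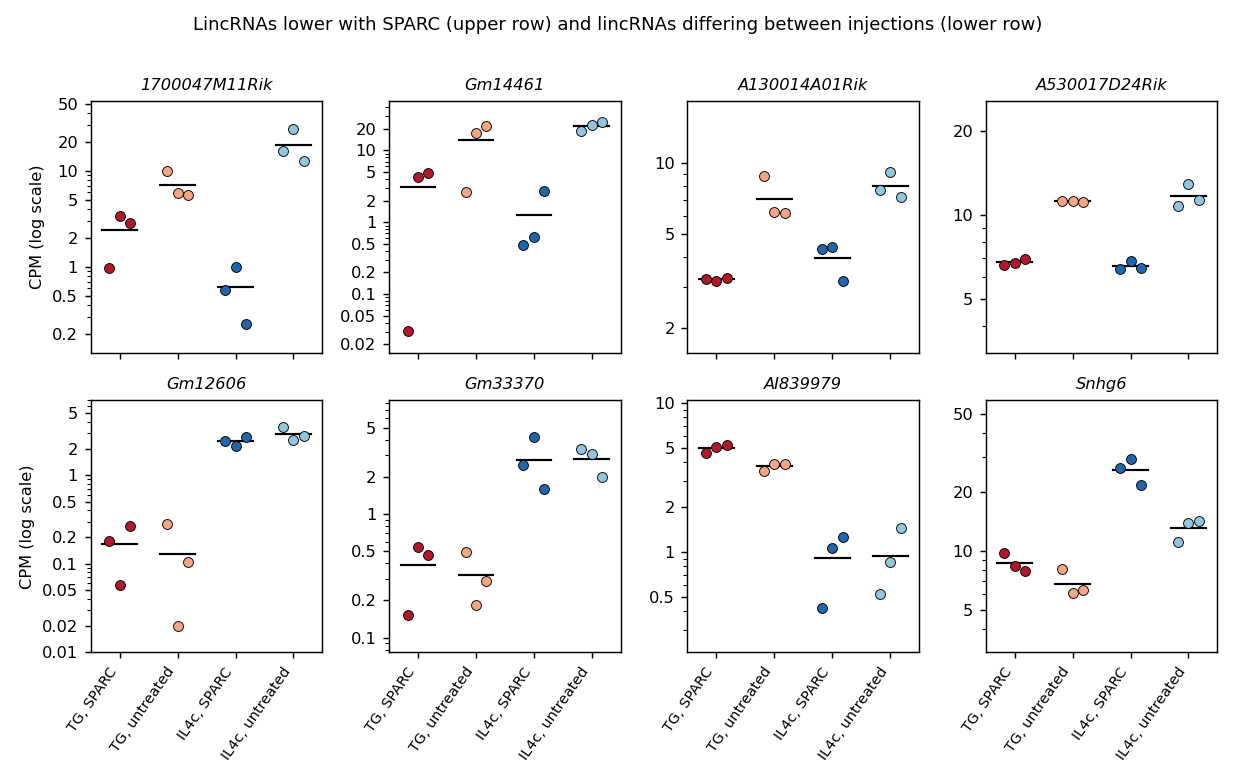
CPM (log scale) of 4 lincRNAs lower with SPARC (upper row) and 4 that differ between injections (lower row), 1 point per library, bar at the group mean, with a library at 0 drawn at 0.02 CPM. 1700047M11Rik is at most 1.01 CPM in IL4c cells with SPARC and at least 12.8 CPM in untreated ones, and Gm12606 is at least 2.15 CPM in all IL4c libraries and at most 0.283 CPM in all TG libraries.

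Host transcripts of small RNAs moved in both directions. Of 26 listed host symbols 8 are among the 214. With SPARC, Mir155hg rose and Mir17hg fell in TG cells, and in IL4c cells Mir155hg, Snhg6 and Snhg12 rose while Snhg18 and Snhg20 fell. Snhg6, host of a small nucleolar RNA that guides chemical modification of other RNAs, was at 26.4, 29.2 and 21.5 CPM in IL4c cells with SPARC, against 11.1, 13.9 and 14.1 CPM in untreated ones (0.98 ± 0.16 higher, adjusted p = 0.00180). In TG cells it was at 9.75, 8.36 and 7.85 CPM, against 8.06, 6.07 and 6.28 CPM (0.35 ± 0.16, adjusted p = 0.201). Snhg12, host of several of them, was at 18.8, 12.3 and 10.5 CPM in IL4c cells with SPARC, against 6.82, 6.78 and 5.99 CPM in untreated ones (1.09 ± 0.28 higher, adjusted p = 0.0162), a call lost without untreated IL4c replicate 2 or 3 (adjusted p = 0.0531 and 0.0527).

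Snhg18 was at 0.448, 0.395 and 0.334 CPM in IL4c cells with SPARC, against 1.07, 2.09 and 0.825 CPM in untreated ones, a fall of 1.75 ± 0.49 (adjusted p = 0.0236). It passed the level rule only through untreated IL4c cells, so it had in part to differ. Snhg20 was at 4.59, 4.29 and 5.73 CPM, against 5.95, 7.40 and 9.15 CPM, a fall of 0.62 ± 0.19 (adjusted p = 0.0315). Both were lost in 4 of the 12 fits without 1 library: Snhg18 without any IL4c library with SPARC or untreated IL4c replicate 2 (adjusted p up to 0.111), Snhg20 without IL4c with SPARC replicate 1 or 2 or untreated IL4c replicate 2 or 3 (adjusted p up to 0.114). Mir17hg, the host of a microRNA cluster that promotes proliferation, was at 3.47, 2.64 and 2.56 CPM in TG cells with SPARC, against 4.24, 4.85 and 5.46 CPM in untreated TG cells (0.75 ± 0.17 lower, adjusted p = 0.0228). That call was lost without any TG library numbered 2 or 3 (adjusted p up to 0.0945) and with the TG groups alone (adjusted p = 0.109). In IL4c cells Mir17hg was at 1.77 to 1.95 CPM with SPARC, against 2.10 to 2.15 CPM untreated (−0.20 ± 0.17, adjusted p = 0.441). Mir142hg, host of a microRNA largely restricted to blood cells, was at 3.25 to 4.27 CPM in TG cells with SPARC, against 5.28 to 6.86 CPM in untreated ones (−0.58 ± 0.20, adjusted p = 0.0967; 0.0243 with the block). Epb41l4aos differed by −0.64 ± 0.23 in TG cells (adjusted p = 0.105) and 0.09 ± 0.23 in IL4c cells (adjusted p = 0.799).

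Between injections, without SPARC, 29 lincRNAs were higher and 13 lower in IL4c cells than in TG cells, which is 19.6% of 214, against 21.0% of all genes tested (10.2% higher and 10.8% lower). Of the 29 that were higher, 20 reached 1 CPM in some groups only. The median over the 214 was −0.03, beside −0.05 over all genes. This split depends on scaling: total-count scaling, which moved the median of all genes to −0.16, gave 22 higher and 21 lower, or 20.1% of the lincRNAs, against 25.9% of all genes. Without both TG libraries numbered 1 the calls were 50 higher and 25 lower, or 35.0% of the lincRNAs, against 38.8% of all genes. The count of 42 was 20 and 25 without untreated TG replicate 2 or 3, and 19 and 23 without untreated IL4c replicate 1 or 2, which is 8.88% to 11.7% of the lincRNAs, against 8.75% to 10.8% of all genes in those fits. Markers of large resident macrophages (Gata6, Icam2, Selp and Timd4) summed to 149 to 321 CPM in untreated IL4c cells, against 14.1 to 62.3 CPM in untreated TG cells. Their part in these differences was not tested.

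Most lincRNAs with the largest rises after IL4c were below 1 CPM in untreated TG cells, which follows in part from the level rule, since 1 CPM in any 1 group was enough. Gm12606 (chromosome 4, 89235699 to 89273403, minus strand), which begins 1068 bp past the end of the cell cycle inhibitor gene Cdkn2a on the same strand, was at 3.50, 2.51 and 2.80 CPM in untreated IL4c cells, against 0.283, 0 and 0.105 CPM in untreated TG cells (4.44 ± 0.78 higher, adjusted p = 0.00557). Gm33370 was at 3.38, 3.06 and 2.00 CPM, against 0.495, 0.183 and 0.289 CPM (3.10 ± 0.55 higher, adjusted p = 0.00557). 4933417E11Rik was at 4.61, 3.81 and 1.68 CPM, against 0.424, 0.391 and 0.657 CPM (2.77 ± 0.59 higher, adjusted p = 0.0113, lost without untreated TG replicate 2 at 0.0533). Gm33280 was at 3.05, 2.33 and 1.57 CPM, against 0.589, 0.313 and 0.341 CPM (2.47 ± 0.46 higher, adjusted p = 0.00675). In each of these 4 the groups were well apart, and IL4c replicate 3 was the lowest untreated IL4c library in all but Gm12606.

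RP24-416M6.5 was at 6.81, 7.87 and 5.46 CPM in untreated IL4c cells, against 2.31, 0.574 and 0.341 CPM in untreated TG cells (2.63 ± 0.59 higher, adjusted p = 0.0133; 0.0637 with these groups alone). Gm12840 was at 6.30, 4.45 and 0.746 CPM, against 0.141, 0.574 and 0.368 CPM, and its rise of 3.40 ± 1.06 (adjusted p = 0.0460) was lost with the block (0.0506) and in 8 of 12 fits without 1 library (adjusted p up to 0.134), those without any untreated library but untreated IL4c replicate 3 and without IL4c with SPARC replicate 1 or 2 or TG with SPARC replicate 3. Trp53cor1 was at 2.79, 2.60 and 2.37 CPM in untreated IL4c cells, against 0.943, 0.808 and 0.814 CPM in untreated TG cells (1.59 ± 0.35 higher, adjusted p = 0.0124, lost without untreated TG replicate 2 at 0.0524). Snhg6 was 0.94 ± 0.16 higher (adjusted p = 0.00491), and Pvt1, at 3.51 to 4.03 against 1.17 to 3.19 CPM, differed by 0.98 ± 0.36 (adjusted p = 0.0750).

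Lower in IL4c cells were Bvht, AI839979, AU020206, Mir17hg, 2610035D17Rik and Mir142hg. Bvht was 2.22 ± 0.30 lower (adjusted p = 0.00186), with 0.195 to 0.399 CPM in untreated IL4c cells, against 1.11 to 1.43 CPM in untreated TG cells. AI839979 was at 0.519, 0.847 and 1.44 CPM in untreated IL4c cells, against 3.51, 3.91 and 3.91 CPM in untreated TG cells (2.00 ± 0.42 lower, adjusted p = 0.00978). AU020206 was 1.34 ± 0.22 lower (adjusted p = 0.00405), Mir17hg 1.19 ± 0.17 lower (adjusted p = 0.00251) and Mir142hg 1.00 ± 0.21 lower (adjusted p = 0.00976). 2610035D17Rik was 1.09 ± 0.31 lower (adjusted p = 0.0342), a value of −0.74 (adjusted p = 0.0717) without both TG libraries numbered 1, and its call was lost in 6 of 12 fits without 1 library, those without any untreated TG library, TG with SPARC replicate 3 or untreated IL4c replicate 1 or 2 (adjusted p up to 0.122). Neat1 was 0.77 ± 0.24 lower (adjusted p = 0.0440; 0.0592 with the block), a call lost in 10 of those 12 fits, all but those without a TG library numbered 1 (adjusted p up to 0.193). AW112010, AI504432 and Ftx differed by −1.73 ± 0.57 (adjusted p = 0.0556), −1.62 ± 0.54 (adjusted p = 0.0584) and −0.82 ± 0.29 (adjusted p = 0.0705; 0.0190 with the block). Mirt1 differed by −1.26 ± 0.67 (adjusted p = 0.203; 0.0158 with the block). Here and for Gm12840 above, the block treats libraries of equal number in the 2 injections as sharing an effect. The data did not show such a pairing, so these block values rest on an assumption. The untreated libraries of both injections also serve as the controls of the SPARC comparisons, so the values are not independent of them.

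The test of whether SPARC acted differently in the 2 injections called none of the 214 lincRNAs and none of all 15232 genes by edgeR's quasi-likelihood test, with 20 and 1612 at an unadjusted p under 0.05. Other fits did call some. DESeq2 called 6 of the 214 (2.80%, against 2.39% of all genes) and the fit with the block 5 (2.34%, against 3.10%). Log2 of FPKM + 1 called 1 of 158 (0.633%, against 0.129%), and the fit without both TG libraries numbered 1 called 9 (4.21%, against 5.41%). These shares were near those of all genes, apart from the single FPKM call. AI427809 was called by all 4 of these alternatives. Leaving out untreated TG replicate 1 alone gave 4 calls (1.87%, against 1.78% of all genes), and TG with SPARC replicate 1 alone 1 (0.467%, against 0.537%). The rise of AI427809 with SPARC was 2.07 ± 0.31 larger in IL4c than in TG cells (unadjusted p = 6.33e-05, adjusted p = 0.147; adjusted p = 0.0198 with the block, 1.54e-06 with DESeq2 and 0.0171 without the TG libraries numbered 1). Bvht had a difference of 1.77 ± 0.40 (adjusted p = 0.173; 0.00646 with DESeq2 and 0.0315 without the TG libraries numbered 1), and A930007I19Rik of 1.11 ± 0.29 (adjusted p = 0.224; 0.0241 with DESeq2 and 0.0156 without those libraries). Other lincRNAs with large rises had 1.8 ± 0.74 for AI504432 (adjusted p = 0.420; 0.0191 with the block) and 1.75 ± 1.06 for Mir155hg (adjusted p = 0.627). For AW112010 and Ptgs2os2 they were 0.18 ± 0.78 and 0.32 ± 0.83 (adjusted p = 0.978 and 0.959). Neat1 had 1.09 ± 0.33 (adjusted p = 0.283, and 0.0245 with the block). Snhg12 had 1.34 ± 0.39 (adjusted p = 0.252, and 0.0357 with the block, 0.0462 with DESeq2 and 0.0379 without the TG libraries numbered 1). 1700047M11Rik had −3.33 ± 0.77 (adjusted p = 0.178, and 0.00243 with DESeq2 and 0.0145 without those libraries). Gm43634, outside the rule for named genes and chosen after its values were seen, was called at −1.56 with the block (adjusted p = 0.0428). DESeq2 gave it −1.54 (adjusted p = 0.0114), and the fit without those libraries −1.80 (adjusted p = 0.0145).

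Because lincRNAs often share chromatin with their neighbours, the nearest protein coding gene within 100 kb was read from the same fit. In TG cells, 6 of the 11 called-higher lincRNAs with a tested neighbour had that neighbour also higher (54.5%), and in 3 of 11 called lower it was also lower (27.3%). The shares for called protein coding genes and their own nearest coding neighbours were 18.1% and 10.2%. In IL4c cells they were 7 of 21 (33.3%) for those higher and 16 of 31 (51.6%) for those lower, beside 27.2% and 19.9% for protein coding genes. These are descriptions, and the shares for protein coding genes were not matched to the lincRNAs for distance or overlap. Of the 214 lincRNAs, 49 overlap a coding gene body and 18 start within 5 kb of the end of one on the same strand. Reads may thus be shared, which was not tested. Among pairs that moved alike, Gdap10 and Nampt, and Gm38399 and Nav1, overlap on the same strand, and RefSeq lists Gm38399 as Nav1 itself. Gm26902 and Ch25h, and Gm26637 and Eif2ak2, overlap on opposite strands.

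The pairs differ in how closely the values match. Ptgs2, the inducible cyclooxygenase, lies 50816 bp from Ptgs2os2 and averaged 16.2 CPM in TG cells with SPARC and 3.24 CPM in untreated ones, and 23.9 CPM in IL4c cells with SPARC and 4.10 CPM in untreated ones (2.32 ± 0.63 and 2.55 ± 0.63 higher, adjusted p = 0.0421 and 0.0148). Kcna3, a voltage-gated potassium channel of leukocytes whose gene ends 1434 bp before AI504432 on the same strand, rose by 2.57 ± 0.64 (adjusted p = 0.0297) and 4.12 ± 0.70 (adjusted p = 0.00232), nearly the values of AI504432 itself. Ch25h, which makes the antiviral oxysterol 25-hydroxycholesterol and overlaps Gm26902, rose by 5.78 ± 1.58 in IL4c cells (adjusted p = 0.0223), and differed by 6.41 ± 1.89 in TG cells (adjusted p = 0.0564). Ifit2, an interferon-induced inhibitor of translation 69148 bp away, rose by 4.38 ± 0.87 (adjusted p = 0.0131) and 6.11 ± 0.95 (adjusted p = 0.00153).

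A930007I19Rik did not follow the genes it overlaps. Pdcd1lg2, which encodes the checkpoint ligand PD-L2, differed by 0.68 ± 0.74 in TG cells (adjusted p = 0.622) and −0.24 ± 0.71 in IL4c cells (adjusted p = 0.834), and Ric1 by 0.36 ± 0.14 (adjusted p = 0.121) and −0.47 ± 0.14 (adjusted p = 0.0266). Cd274, encoding PD-L1 76655 bp away, rose by 1.78 ± 0.43 (adjusted p = 0.0267) and 1.29 ± 0.42 (adjusted p = 0.0453). Ms4a8a, the nearest coding gene to AW112010 at 11663 bp, differed by 0.14 ± 0.31 and −0.14 ± 0.31 (adjusted p = 0.826 and 0.781), beside the rises of 3.29 and 3.47 of AW112010. Mrpl39, a mitochondrial ribosomal protein gene 2331 bp from Mir155hg, rose by 0.46 ± 0.10 (adjusted p = 0.0190) and 0.57 ± 0.10 (adjusted p = 0.00296). Myc, 47612 bp from Pvt1, fell by 0.88 ± 0.16 (adjusted p = 0.00914) and 0.68 ± 0.16 (adjusted p = 0.0117) where Pvt1 was not called. Among falls, Sema5a, a semaphorin gene divergent from Snhg18 at 148 bp, fell by 2.38 ± 0.70 in IL4c cells (adjusted p = 0.0299), Syne3, which ends 3244 bp before Gm28875, fell by 1.19 ± 0.18 (adjusted p = 0.00122), and Degs1, 5186 bp from 1700047M11Rik, fell by 0.65 ± 0.21 (adjusted p = 0.0409), far less than the lincRNA.

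**Figure D5:**
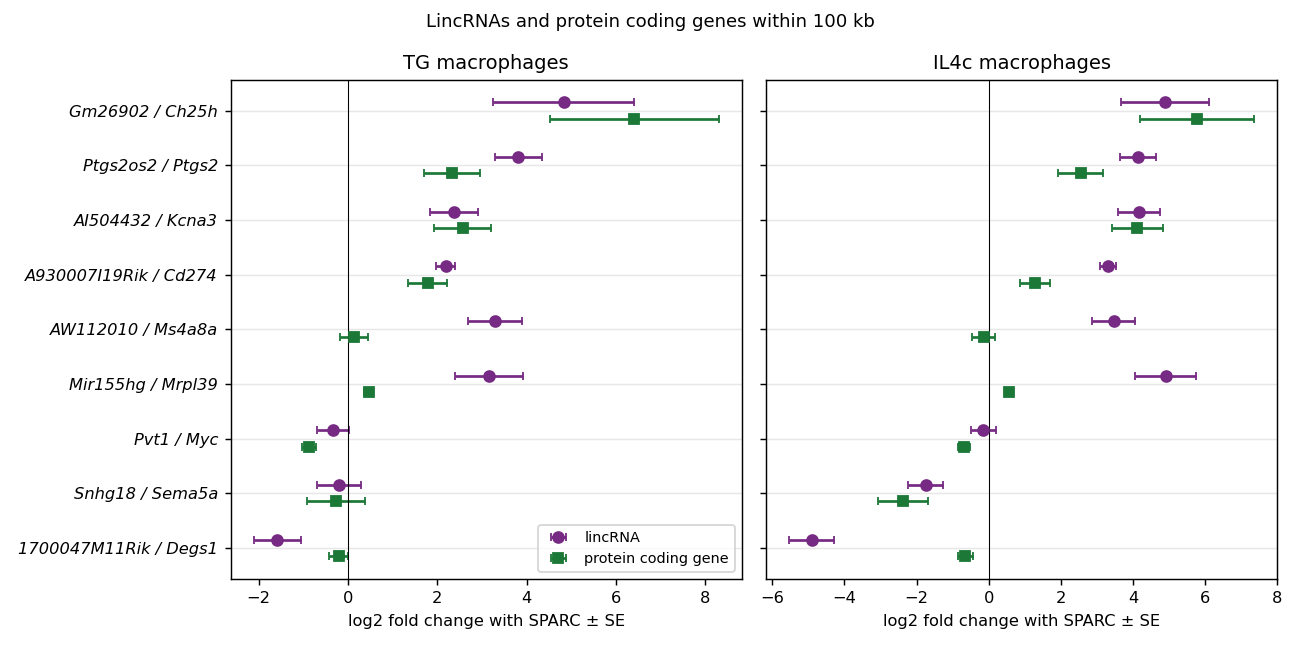
Log2 fold change with SPARC ± SE of 9 lincRNAs (circles) and of a protein coding gene within 100 kb of each (squares), in TG macrophages (left) and IL4c macrophages (right). AI504432 and Kcna3 nearly coincide, whereas Ms4a8a stays near 0 beside AW112010 and Degs1 near −0.65 beside 1700047M11Rik at −4.91 in IL4c cells.

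Across samples, the TG libraries numbered 1 differed from the other TG libraries for few of the 214. Both exceeded the other 4 at least 2-fold for 5 lincRNAs (2.34%, against 3.99% of all genes tested), and both were at least 2-fold below them for 9 (4.21%, against 3.18%). Among the 9, Gpr137b-ps was at 14.7 CPM with SPARC and 16 CPM untreated in the libraries numbered 1, against 41.3 to 67.9 CPM in the other 4. Gm44205 was at 0.640 and 0.754 CPM, against 5.97 to 7.56 CPM. Among the 5, Gm15675 was at 8.41 and 15.9 CPM, against 1.18 to 3.10 CPM. These 3 were chosen after their values were seen. Of the 119 lincRNAs at 1 CPM in all 4 groups, the ratio of the highest to the lowest group mean had a median of 1.81, and it was below 1.5 for 34 and above 4 for 7. Among the widest were AW112010 at 32.4, AI427809 at 29.9, Gm14461 at 17.5 and A930007I19Rik at 13.8, and 1810058I24Rik was among those with the closest group means at 1.08.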

How the data were processed

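PolyA RNA of 12 libraries, 3 in each of 4 groups, was sequenced; per the submitters' processing notes the authors used CASAVA, bcl2fastq 1.8.4, STAR and RSEM. The deposited matrices hold estimated counts per gene, which the authors made with RSEM per those notes, and FPKM values, which the authors scaled by length and library size. The sources used here do not give the genome build, the annotation or the strandedness. Expected counts (7.97% of values not whole) were rounded. The edgeR 4.0.16 quasi-likelihood test (R 4.3.3; robust, TMM factors 0.959 to 1.101) was fitted over all 4 groups for the 15232 genes that pass filterByExpr with a minimum count of 10, with Benjamini-Hochberg adjustment over all of them and a threshold of 0.05. Each SE was taken from the F statistic, as the size of the log2 fold change over the root of F. Common biological variation was 0.308 (coefficient of variation, 8 residual degrees of freedom). Alternatives used limma 3.58.1, DESeq2 1.42.0, other scalings, filters and FPKM, and each library left out in turn. The count fit was tested on simulated data with known changes.

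Whether replicate numbers pair libraries was checked on deviations from group means. Libraries of one injection that share a number correlated at 0.342 to 0.735 in all 6 cases, and those with different numbers at −0.659 to 0.507, so the numbers were taken to pair SPARC and untreated libraries within an injection. This is read from the data, since the labels give only the shared number. Across injections equal numbers gave −0.178 to 0.25, so they were not taken to pair libraries there. The block between injections still gave each number 1 effect shared by both, unlike the block of the SPARC comparisons. Its results between injections thus rest on a pairing that these correlations do not show.

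The lincRNAs and gene lists were chosen with earlier results of these data known, so counts are descriptions beside the share of all genes. Named are up to 6 of the largest rises and falls per comparison, among those called whose libraries did not overlap and which averaged 1 CPM or more over all 12. The 6 with the highest FPKM, all listed genes and the 3 rows on either side of the level rule are also named. Positions are from GENCODE M21 (GRCm38), sequences from RefSeq (GRCm38.p6).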

Additional observations from a re-analysis of the deposited data

How the results depend on the processing

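In TG cells the 25 lincRNAs called with SPARC became 14 under a stricter filter (at least 5 CPM in at least 3 libraries, which tests 64 of the 214), 8 with the TG groups fitted alone, 43 with DESeq2 and 16 on log2 of FPKM + 1 with no filter. Calls among all genes moved as well, from 1025 higher and 689 lower of 15232. The stricter filter gave 981 and 755 of 10411. The TG groups alone gave 367 and 138 of 14229, with 201 of the 214 tested. DESeq2 gave 1514 and 1118 of 15232, and log2 of FPKM + 1 with no filter 495 and 506 of 26143. In IL4c cells 66 became 25 under the stricter filter. All genes there gave 1972 higher and 1741 lower of 10411, against 2301 and 1936 of 15232. Between injections 42 became 11 under the stricter filter, 24 with these groups alone and 75 without both TG libraries numbered 1. All genes gave 1305 higher and 1274 lower of 10411 under that filter, against 1548 and 1649 of 15232. With these groups alone they gave 1034 and 597 of 14312, with 202 of the 214 tested. With the replicate number as a block the counts were 68 in TG cells and 107 in IL4c cells, against 25 and 66 without it. The block gave 45 between injections, beside 1787 higher and 1919 lower of 15232 among all genes. There it treats equal numbers of both injections as sharing an effect, which the correlations did not show. For the difference of SPARC effects, 0 became 5 with the replicate block, 6 with DESeq2, 1 on log2 of FPKM + 1 with or without a filter and 9 without both TG libraries numbered 1. Leaving out 1 library at a time gave 11 to 28 calls in TG cells, 39 to 74 in IL4c cells, 19 to 54 between injections and 0 to 4 for the difference. In the TG fit with 11, all genes had 475 higher and 262 lower of 15739, and in that with 28 they had 1052 and 564 of 15763. For IL4c cells these were 1407 and 1100 of 15797, and 2789 and 2389 of 15586. Between injections they were 868 and 648 of 15801, and 2316 and 2246 of 15586. Higher calls in TG cells made up 52.0% of the 25, 43.5% under total-count scaling and 38.5% on log2 of FPKM + 1. Between injections they made up 69.0%, and 51.2% under total-count scaling. Of 57 called comparisons of named lincRNAs, 32 were kept under every alternative and 0 changed direction. Beside the calls given with their values, the block brought past the threshold 2610035D17Rik (adjusted p = 0.0119, against 0.0564) and Gm33280 (0.0336, against 0.111) in TG cells, and 4933417E11Rik (0.0189, against 0.363) and Gm33280 (0.0114, against 0.114) in IL4c cells, and it changed no other call of a named lincRNA. Why the other counts moved was not tested. At 3 counts, 0.0707 to 0.0974 CPM, the rarest lincRNAs are at or near the limit of detection, as in the untreated TG libraries for Ptgs2os2 and Gm26902. Some untreated IL4c libraries lay above that level for these lincRNAs.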

Other observations

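A few lincRNAs outside the rule for named genes were chosen after their values were seen. A330074K22Rik had the largest fitted rise with SPARC in IL4c cells, at 1.05, 3.13 and 3.45 CPM with SPARC, against 0, 0 and 0.186 CPM untreated (adjusted p = 0.00799). It passed the level rule only through IL4c cells with SPARC, so it had in part to differ. In TG cells it was at 0.884, 0.373 and 0.353 CPM with SPARC, against 0, 0.0782 and 0.131 CPM untreated. 3300005D01Rik and Gm26912, also rare, had the largest falls shared by both injections, by 1.43 and 1.46 in TG cells and by 1.87 and 1.59 in IL4c cells. 3300005D01Rik passed the level rule only through untreated TG cells, so its TG fall follows in part from that rule. 1010001N08Rik, which overlaps Gata6 on the opposite strand, was 2.47 ± 0.58 higher in untreated IL4c cells than in untreated TG cells (adjusted p = 0.0158). Gata6 is the transcription factor of resident peritoneal macrophages, and without strand the reads of both cannot be told apart.

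Some lincRNAs had like group means. Among the 119 at 1 CPM throughout, the ratio of the highest to the lowest group mean was 1.07 for 5031425E22Rik, 1.11 for 4632415L05Rik, 1.12 for Gm9796 and 1.15 for 1810014B01Rik. Single libraries varied more: 5031425E22Rik ran from 7.51 to 14.8 CPM and Gm9796 from 0.701 to 1.77 CPM, while 4632415L05Rik ran from 13.6 to 17.8 CPM. Xist, the X inactivation RNA, is typed lincRNA but fell short of the level rule.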
